A study of Homo sapiens with 4 samples.

Results

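The 8 genes described here encode the RNA-binding proteins LIN28A and LIN28B, the ubiquitin ligase and RNA-binding protein TRIM71, the LIN28A partner L1TD1, the chromatin protein HMGA2 and the IGF2 mRNA-binding proteins IGF2BP1, IGF2BP2 and IGF2BP3. They were chosen by name as the LIN28 and let-7 circuit of early embryonic cells, with earlier results of these data known. All 8 were found by Entrez gene ID among the 27685 gene IDs of each library, on 1 row each. RNA was sequenced from NCC-IT-A3, which is labelled embryonal carcinoma, a germ cell tumour type whose cells resemble those of the early embryo. The 2 barasertib libraries came from cells given 100 nM of this Aurora B kinase inhibitor over 4 days, and the 2 DMSO libraries from cells given DMSO instead. All libraries came from the same single line, grown in RPMI medium with serum. Whether the 2 libraries of each group are from separate cultures is not stated. The p-values therefore reflect the spread between these particular libraries, which may be technical. In bulk RNA, fewer cells of a type and less RNA per cell cannot be told apart.

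LIN28A and LIN28B bind the precursors of the let-7 microRNAs and block their maturation, and the uridyl transferases TUT4 and TUT7 tag precursors held by LIN28 for decay by DIS3L2. Mature let-7 in turn pairs with the 3′ untranslated regions (UTRs) of LIN28B, TRIM71, HMGA2 and the IGF2BP genes and represses them, so that high LIN28 and high levels of these targets go together in pluripotent and embryonal carcinoma cells. TRIM71 represses messages of differentiation and cell cycle inhibitors in embryonic stem cells, and the IGF2BP proteins stabilise bound messages. The libraries hold polyadenylated RNA, so mature let-7 was not measured.

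The let-7 family is shown first because its shared seed, bases 2 to 8, defines the sites searched below. The seed is in capitals, and the sequences are those of RefSeq (GRCh38.p14), 5′ to 3′.
let-7a: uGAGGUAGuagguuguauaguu
let-7b: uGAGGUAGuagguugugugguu
let-7c: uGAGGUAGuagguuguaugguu
let-7d: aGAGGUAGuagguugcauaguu
let-7e: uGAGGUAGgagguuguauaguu
let-7f: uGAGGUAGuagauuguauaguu
let-7g: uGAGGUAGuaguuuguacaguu
let-7i: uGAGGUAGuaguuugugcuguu
miR-98: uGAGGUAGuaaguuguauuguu
The same 7 bases are the seed of 11 mature microRNAs in that table, the other two being miR-4458 and miR-4500.

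LIN28 proteins hold precursors by their zinc knuckles, which bind GGAG in the loop. All 12 hairpins of the let-7 and miR-98 loci were matched. GGAG lies after the 5′ mature sequence, on the loop side, in 9 of them, and MIRLET7A3, MIRLET7B and MIR98 do not hold these letters there. As letters alone, on the transcribed strand, GGAG occurs anywhere in 43.4% of the 1562 human hairpins of the table. One hairpin of each kind is shown with GGAG in capitals, MIRLET7G from chr3:52268278-52268361 (minus strand) and MIRLET7A3 from chr22:46112749-46112822 (plus strand), both in GRCh38.p14.
MIRLET7G: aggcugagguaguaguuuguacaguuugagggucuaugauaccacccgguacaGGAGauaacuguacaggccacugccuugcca
MIRLET7A3: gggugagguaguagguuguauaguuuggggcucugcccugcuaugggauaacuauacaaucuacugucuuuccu

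Matches to the let-7 seed were searched on the message strand of 1 3′ UTR per gene (GENCODE release 29, GRCh38, the principal transcript with the longest 3′ UTR). An 8-base site is CTACCTCA, and the 7-base sites are CTACCTC without the final A, or TACCTCA without the leading C, each match counted once under the longest form. Of the 8 genes, 7 held at least 1 site and at least 1 8-base site, with 29 sites in all. TRIM71 held 8 sites in 6015 bases, HMGA2 7 in 3003 bases, LIN28B 5 in 4549 bases and IGF2BP1 5 in 6206 bases. IGF2BP2 held 2 sites in 1792 bases, LIN28A 1 in 3264 bases and IGF2BP3 1 in 2153 bases. L1TD1 held none in 956 bases. Among all 18687 genes with a 3′ UTR, 14.04% held a site and 3.3% held an 8-base site. Each gene was also set beside 3′ UTRs of 0.8 to 1.25 times its length, its own included. Of 782 such 3′ UTRs 0.13% held at least as many sites as TRIM71, and of 1996 0.05% at least as many as HMGA2. In both cases that share is the gene's own 3′ UTR alone. The share with at least as many sites was 0.16% for LIN28B and 0.56% for IGF2BP1. For IGF2BP2 this share was 1.69%, while for IGF2BP3 it was 19.5% and for LIN28A 28.3%. The 8 genes were chosen as part of the let-7 circuit, so low shares follow at least in part from that choice. A match describes letters and does not show that let-7 binds there. The first 8-base site of each gene is given with the bases before it, the site in capitals, in DNA letters.
HMGA2, chr12:65963313-65963320, plus strand: ggggcgccaacgttcgatttCTACCTCA
LIN28B, chr6:105078827-105078834, plus strand: ttcctttacccggttgcaaagtCTACCTCA
TRIM71, chr3:32891983-32891990, plus strand: aaagtacaacattgcttaagtcCTACCTCA
IGF2BP1, chr17:49051076-49051083, plus strand: gcaatgctgtgtgcgaagtaaaCTACCTCA
IGF2BP2, chr3:185644220-185644227, minus strand: cgagaaaaacacacagaagaagCTACCTCA
IGF2BP3, chr7:23311795-23311802, minus strand: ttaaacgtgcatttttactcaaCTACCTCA
LIN28A, chr1:26427363-26427370, plus strand: ttggagtgcacagcctattgaaCTACCTCA

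Levels are given in TPM, transcript abundance scaled by transcript length to a fixed library total, and each library rests on 4.22 to 4.59 Gb of aligned bases as estimated from coverage and FPKM. Changes are differences of mean log2(TPM + 1), barasertib minus DMSO, which understate the change of low genes, and were tested with limma over the 13938 genes that averaged 1 TPM or more. All 8 genes passed that minimum, and all were expressed in both groups. L1TD1 was the most abundant by mean and LIN28A the next, and LIN28B was the least abundant. By their mean over the 4 libraries they ranked above 73.5% of tested genes in the case of LIN28B and above 98.7% in the case of L1TD1.

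With barasertib 2 of the 8 messages rose and 2 fell. LIN28A and IGF2BP1 rose and HMGA2 and IGF2BP3 fell (limma, Benjamini-Hochberg adjusted p under 0.05), while LIN28B, TRIM71, L1TD1 and IGF2BP2 did not pass. These 4 calls among 8 genes stand beside 29.5% of all tested genes called in either direction, 22.0% higher and 7.44% lower. The changes ran from -0.25 to 0.23 on the log2 scale, and their median lay 0.11 below that of all tested genes, which was itself 0.11. The 2 groups did not overlap for 6 of the 8 genes, against 68.8% of all tested genes. Median-of-ratios scaling and quantile normalisation moved the median change of all genes by -0.11 and -0.12, and the falls of HMGA2 and IGF2BP3 passed under both, whereas the rise of IGF2BP1 passed under neither and that of LIN28A under quantile normalisation alone. Of all tested genes, 12.0% were higher and 12.3% lower by the first scaling, 11.8% and 11.4% by the second, and 10.7% and 7.05% were so under all 3 scalings. Leaving out a library shifted the counts of members, and where 1 was higher it was LIN28A each time. Without barasertib replicate 1 none was higher and 1 lower (9.85% and 4.34% of all genes), and 3 and 3 had an unadjusted limma p under 0.05. When barasertib replicate 2 was dropped, 1 was higher and 1, IGF2BP3, lower (11.5% and 4.77% of all genes). Dropping DMSO replicate 1 left 1 higher and none lower (15.2% and 4.98% of all genes; limma at an unadjusted p under 0.05 gave 2 and 2), and dropping DMSO replicate 2 did the same (15.6% and 4.99%; 1 and 2 unadjusted). With no mean-variance trend in limma none was called (15.9% and 4.84% of all genes; 2 and 2 unadjusted). With FPKM 1 was higher and 2 lower (20.7% and 9.15%; IGF2BP1 had an adjusted p of 0.0564), with no filter 2 and 1 (11.9% and 3.67%; IGF2BP3 had an adjusted p of 0.0790), and with the replicate number as a block 2 and 2 (23.1% and 7.75%).

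**Figure D1:**
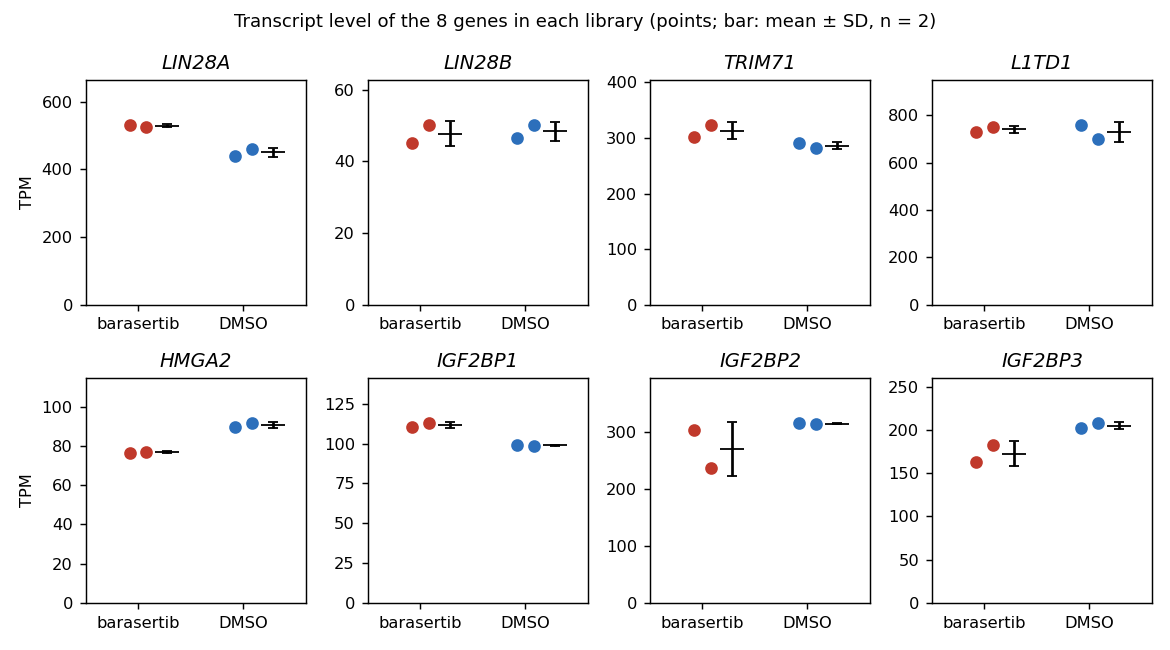
TPM of the 8 genes in each library, with the vertical axis from 0 in every panel; points are libraries and the black bar is the mean with its SD (n = 2 per group). The groups overlap for LIN28B and L1TD1, and the barasertib libraries of IGF2BP2 lie apart at 304 and 238 TPM.

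LIN28A (gene ID 79727, chromosome 1 from 26737259 to 26756219 in the hg19 coordinates of the files) was at 532.5 and 527 TPM in the barasertib libraries, against 441 and 461 TPM in the DMSO libraries. Both barasertib libraries were higher than both DMSO libraries. LIN28A rose by 0.23 on the log2 scale (95% interval 0.13 to 0.33, limma adjusted p = 0.00940), which is 17.5% more. After median-of-ratios scaling the change was 0.11 (adjusted p = 0.0817). The LIN28A call was also lost without barasertib replicate 1 (limma adjusted p = 0.0533) and without the mean-variance trend (0.0706). Over the 14 alternatives the adjusted p lay between 0.00362 and 0.0817.

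LIN28B (gene ID 389421, chromosome 6 from 105404923 to 105531207 in hg19), the paralog that carries several let-7 sites itself, was at 45.2 and 50.3 TPM with barasertib, against 46.6 and 50.3 TPM with DMSO. The groups overlapped, and the change of -0.02 had a 95% interval from -0.21 to 0.17 (limma adjusted p = 0.859). Its sign turned to positive when barasertib replicate 1 or DMSO replicate 2 was left out. LIN28A made up 92.2% and 91.3% of the summed LIN28A and LIN28B TPM with barasertib, against 90.4% and 90.2% with DMSO. In all 4 libraries LIN28A was the main form, and its share was higher in both barasertib libraries. With 2 libraries per group the exact two-sided permutation test cannot give a p below 0.333, the value it gave here.

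TRIM71 (gene ID 131405, chromosome 3 from 32859510 to 32939318 in hg19), also called LIN41 and the gene with the most let-7 sites of the 8, was at 302 and 324 TPM with barasertib, against 291 and 281 TPM with DMSO. Both barasertib libraries were higher, by a log2 change of 0.13 (95% interval 0.01 to 0.25) that did not pass the test (limma adjusted p = 0.0981) and lay 0.02 above the median of all genes. After median-of-ratios scaling it was 0.01 (adjusted p = 0.880). L1TD1 (gene ID 54596, chromosome 1 from 62660474 to 62678001 in hg19), an RNA-binding protein derived from a LINE-1 element, was at 728 and 752 TPM with barasertib, against 760.2 and 699.7 TPM with DMSO. Its groups overlapped and its change was 0.02 (95% interval -0.10 to 0.14, limma adjusted p = 0.777), with a negative sign after median-of-ratios scaling.

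HMGA2 (gene ID 8091, chromosome 12 from 66218240 to 66360071 in hg19), an architectural chromatin protein of embryonic cells and the classic let-7 target, was at 76.5 and 77.2 TPM with barasertib, against 89.7 and 91.7 TPM with DMSO. Both barasertib libraries were lower. HMGA2 fell by 0.24 on the log2 scale (95% interval of the change -0.36 to -0.11, limma adjusted p = 0.0180), a change of -15.1%, and the change was -0.35 after median-of-ratios scaling (adjusted p = 0.00527). The call was lost with any 1 of the 4 libraries left out (adjusted p of 0.0587 to 0.0840). HMGA1, its paralog in the same protein family, was far more abundant, at 1307 ± 53.0 TPM with barasertib and 1255 ± 27.9 TPM with DMSO (SD, n = 2 each), and did not pass (log2 change 0.06, 95% interval -0.04 to 0.16, limma adjusted p = 0.314; -0.06 after median-of-ratios scaling). The ratio of HMGA1 to HMGA2 TPM was 17.6 and 16.5 with barasertib, against 14.2 and 13.5 with DMSO.

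HMGA2 is known to be made in several transcript forms, some of which lack the let-7 sites. The files give 1 value per gene, but the ratio of coverage to FPKM falls below its library maximum where transcripts of unequal length are summed. For HMGA2 this ratio was 67.3% and 68.0% of the maximum in the barasertib libraries, against 67.2% and 67.5% in the DMSO libraries. IGF2BP2 stood at 93.1% and 90.1% with barasertib, against 92.9% and 91.4% with DMSO. L1TD1 was between 97.65% and 97.75%, and the other 5 genes were at 99.92% or above in every library.

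The 3 IGF2BP paralogs, which share their RNA-binding domains, did not all pass in one direction. IGF2BP1 (gene ID 10642, chromosome 17 from 47074774 to 47133507 in hg19) was at 111 and 113 TPM with barasertib, against 99.1 and 98.6 TPM with DMSO. It rose by 0.17 (95% interval 0.06 to 0.29, limma adjusted p = 0.0389), but the change was 0.06 after median-of-ratios scaling (adjusted p = 0.406) and 0.07 after quantile normalisation (0.322). The IGF2BP1 call was lost with any 1 of the 4 libraries left out (adjusted p of 0.0859 to 0.143).

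IGF2BP3 (gene ID 10643, chromosome 7 from 23349828 to 23509995 in hg19) was at 163 and 183 TPM with barasertib, against 202 and 208 TPM with DMSO. Both barasertib libraries were lower, though they stood further apart from each other than the DMSO libraries did. IGF2BP3 fell by 0.25 on the log2 scale (95% interval of the change -0.41 to -0.09, limma adjusted p = 0.0347). The change was -0.37 after median-of-ratios scaling (adjusted p = 0.0106) and -0.16 without barasertib replicate 1, where the call was lost (0.0990), as it was without DMSO replicate 1 (0.0620) or DMSO replicate 2 (0.0965). IGF2BP2 (gene ID 10644, chromosome 3 from 185360919 to 185542844 in hg19) was at 304 and 238 TPM with barasertib, against 316 and 315 TPM with DMSO. One barasertib library was close to DMSO and the other well below it, and the log2 change of -0.23 did not pass (95% interval -0.50 to 0.03, limma adjusted p = 0.158). Leaving out the first barasertib library gave -0.41 (limma adjusted p = 0.0177), and leaving out the second gave -0.05 (0.426). In the fit lacking that first library, IGF2BP2 was the 1 member called lower.

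Summed over the 3 paralogs, expression was 577 and 533 TPM with barasertib, against 618 and 621 TPM with DMSO. IGF2BP1 made up 19.1% and 21.2% of that sum with barasertib, against 16.0% and 15.9% with DMSO, and both barasertib libraries were higher. The shares of IGF2BP2 and IGF2BP3 overlapped between groups. The exact two-sided permutation p of the IGF2BP1 share was 0.333, the smallest that 2 against 2 libraries allow.

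**Figure D2:**
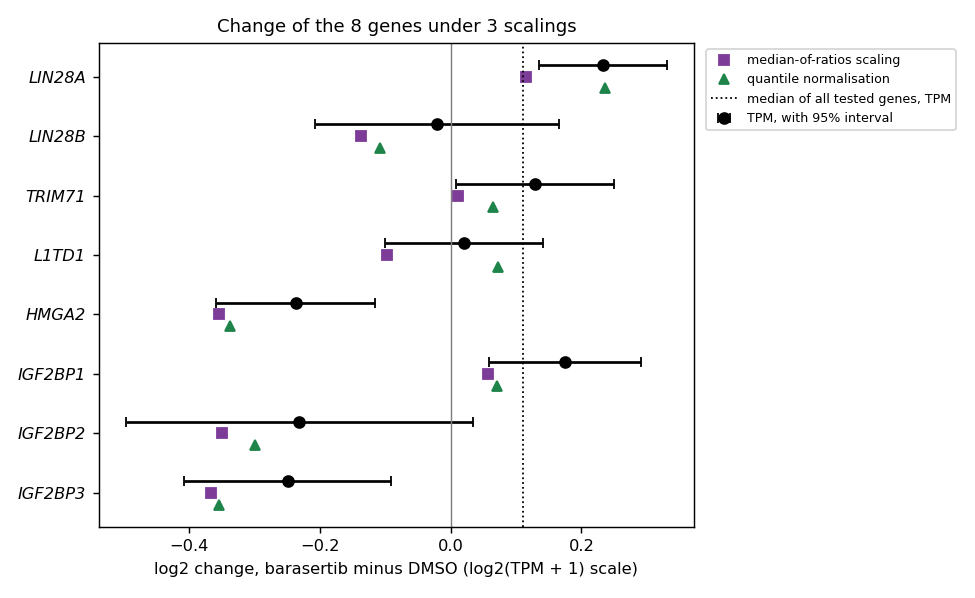
Log2 change of each gene, barasertib minus DMSO, under the 3 scalings, with the limma 95% interval for TPM; the dotted line is the median of all tested genes in TPM (0.11). HMGA2 and IGF2BP3 lie below 0 under all 3 scalings with TPM intervals below 0, whereas IGF2BP1 is near 0 under the other two.

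The rows of the files that overlap these genes were at or near 0. RPSAP52 and IGF2BP2-AS1, on the opposite strand from HMGA2 and IGF2BP2, were listed at 0 in every library, and HMGA2-AS1 was at 0.0605 TPM in 1 barasertib library and listed at 0 in the others. Pseudogene copies of LIN28A, L1TD1, IGF2BP2 and IGF2BP3 are known, with no row of their own here, and the handling of reads they share was not given in the sources used here.

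In the let-7 processing and decay list 3 genes rose (DGCR8, SYNCRIP and DROSHA) and 3 fell (DDX17, PRKRA and HNRNPA1). DGCR8, which binds primary microRNAs for the nuclease DROSHA, was at 28.1 and 26.6 TPM with barasertib, against 18.15 and 18.98 TPM with DMSO. It rose by 0.54 on the log2 scale (limma adjusted p = 0.00442), and its groups did not overlap. DROSHA, named after its value was seen, was at 57.3 and 57.2 TPM with barasertib, against 48.3 and 49.6 TPM with DMSO, a rise of 0.22 (limma adjusted p = 0.0297) that was 0.11 after median-of-ratios scaling (0.207). The DROSHA call was also lost with any 1 library left out (adjusted p of 0.0825 to 0.134). SYNCRIP, an RNA-binding protein of the hnRNP family, was at 123 and 122 TPM with barasertib, against 96.4 and 73.6 TPM with DMSO (log2 change 0.53, limma adjusted p = 0.0218). That call was lost after either rescaling (0.0557 and 0.0545), when either barasertib library was left out (0.108 and 0.101), without the filter (0.0698), without the mean-variance trend (0.0693) and with robust moderation (0.0591). The SYNCRIP change was 0.73 without DMSO replicate 1 and 0.34 without DMSO replicate 2, where it passed (limma adjusted p of 0.000812 and 0.0161).

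DDX17, an RNA helicase of the DROSHA complex, fell to 194 ± 6.69 TPM with barasertib, against 247 ± 0.885 TPM with DMSO (log2 change -0.35, limma adjusted p = 0.00394). PRKRA, a partner of DICER1, fell to 118 ± 6.06 TPM, against 140.5 ± 4.32 TPM with DMSO (log2 change -0.25, limma adjusted p = 0.0223; 0.0878 without barasertib replicate 1 and 0.0863 without DMSO replicate 2). HNRNPA1, which binds the primary let-7a transcript, fell to 767 ± 15.9 TPM, against 884 ± 30.7 TPM with DMSO (log2 change -0.20, limma adjusted p = 0.0143). Its copy HNRNPA1P10 was listed at 1382 and 1434 TPM with barasertib, against 1732 and 1619 TPM with DMSO, so the 2 rows may share reads. The HNRNPA1 call was lost without either barasertib library or DMSO replicate 1 (limma adjusted p of 0.0507 to 0.0706). These 3 and 3 are of 16 genes, or 18.75% each way, against 22.0% higher and 7.44% lower among all tested genes. Under all 3 scalings 1 and 3 of them passed, against 10.7% and 7.05% of all tested genes. The 16 genes had a median change of -0.14 relative to all genes. Those that did not pass include DICER1 (17.3 ± 0.683 TPM with barasertib, 17.8 ± 0.193 TPM with DMSO, 95% interval of the log2 change -0.22 to 0.15), and also TUT7, DIS3L2 and TUT4, which act on precursors held by LIN28. TUT4 was at 42.2 and 47.3 TPM with barasertib, against 50.2 and 49.98 TPM with DMSO (log2 change -0.16, limma adjusted p = 0.142), and passed as lower after median-of-ratios scaling (-0.28, 0.0367) and quantile normalisation (-0.26, 0.0445). These 4 genes were named after their values were seen.

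The 10 Argonaute, TNRC6 and deadenylation genes carry out silencing by mature microRNAs. Among them none rose and 1 fell (limma, or 1 and 2 at an unadjusted p under 0.05). The shares of all tested genes were 22.0% and 7.44%, and the median change of the 10 was -0.03 relative to all genes. The one that fell was PABPC1, the main cytoplasmic poly(A)-binding protein, at 1709 and 1776 TPM with barasertib, against 2171 and 2085 TPM with DMSO (log2 change -0.29, limma adjusted p = 0.00364). The PABPC1 change was -0.41 after median-of-ratios scaling (adjusted p = 0.00131) and -0.11 after quantile normalisation (0.0402). AGO1 to AGO4 did not pass.

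**Figure D3:**
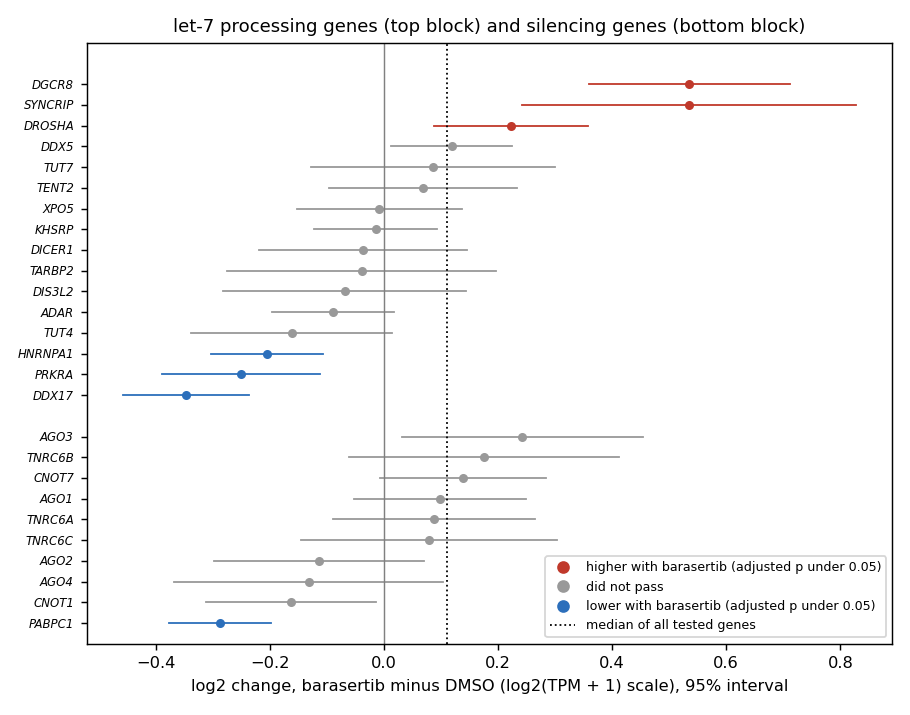
Log2 change with its limma 95% interval for the 16 let-7 processing and decay genes (top block) and the 10 silencing genes (bottom block), coloured by the call. DGCR8 and SYNCRIP lie highest, and DDX17, at -0.35, lies lowest.

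The let-7 loci themselves were barely seen. Of 18 loci and host genes 17 had a row, 7 were listed at 0 in all 4 libraries, and 3 passed the minimum of 1 TPM. These 3 were the host genes HUWE1 and WDR82 and the let-7 locus MIRLET7I. None of the 3 rose or fell (limma; also none at an unadjusted p under 0.05). WDR82, which lies at the MIRLET7G locus, was at 79.9 and 83.3 TPM with barasertib, against 84.0 and 90.9 TPM with DMSO (log2 change -0.10, limma adjusted p = 0.272). Its change was -0.21 after median-of-ratios scaling, where it passed (adjusted p = 0.0464). MIR100HG, a host gene of let-7 named after its values were seen, averaged under the minimum, at 1.46 and 1.47 TPM with barasertib, against 0.438 and 0.334 TPM with DMSO. Its groups did not overlap, and with no filter it was called higher (log2 change 0.83, limma adjusted p = 0.0173), as were 11.9% of all genes. Genes listed at 0 numbered 9074 and 9123 in the barasertib libraries, against 10153 and 10098 with DMSO. Among other low rows, MIRLET7D and MIR99AHG were higher in both barasertib libraries. MIR98 was lower, listed at 0 in both, against 0.168 and 0.0866 TPM with DMSO.

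Among 50 other genes reported or predicted as let-7 targets, 48 were tested, and 11 rose and 4 fell, or 22.9% and 8.33%, close to the 22.0% and 7.44% of all tested genes. Under all 3 scalings 7 rose and 4 fell (10.7% and 7.05% of all tested genes), and the median change was -0.01 relative to all genes. CCND1 (cyclin D1) was at 123 and 120 TPM with barasertib, against 63.7 and 57.3 TPM with DMSO, a rise of 1.00 on the log2 scale (limma adjusted p = 0.000571). RRM2, a subunit of ribonucleotide reductase, rose by 0.82 (limma adjusted p = 0.000877). PRTG (protogenin), a cell surface protein of the early embryo, was at 28.6 and 33.2 TPM with barasertib, against 50.5 and 54.0 TPM with DMSO, and fell by 0.74 (limma adjusted p = 0.00277). The count of genes that rose was 7 without barasertib replicate 1, and the count that fell was 1 to 2 with any 1 library left out.

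Of the 46 tested members of that list with a 3′ UTR, 41 (89.1%) held a let-7 seed match, against 16.1% of all tested genes. Targets are predicted in part from such matches, so a high share was set in part by the choice of the list. The 3′ UTR lengths of the list and of all tested genes were not matched. CCND1 held 2 of the 7-base sites, RRM2 1 8-base site, and PRTG 3 sites of which 1 was an 8-base site. Of the members with a site 9 rose and 4 fell, and of the 5 without a site 1 rose and none fell. Among all tested genes with 1, 2 and 3 or more sites, 19.3%, 18.1% and 19.8% were higher and 7.88%, 7.64% and 9.88% lower. Of those with no site 23.8% were higher and 7.69% lower.

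**Figure D4:**
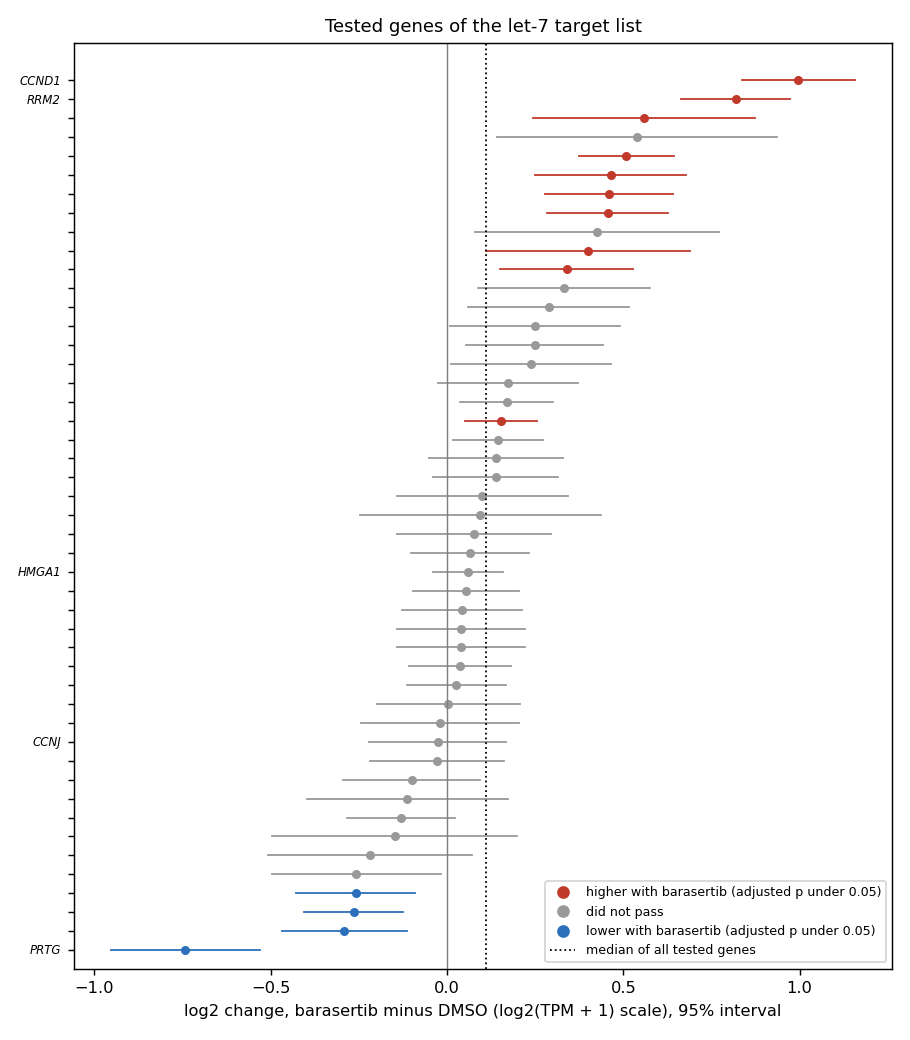
Log2 change with its limma 95% interval for tested genes of the let-7 target list (1 not shown), sorted by change and coloured by the call, with the names of genes the text describes; the dotted line is the median of all tested genes. CCND1 and RRM2 lie at the top among the genes shown, and PRTG, at -0.74, lies lowest.

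Across all 12349 tested genes with a 3′ UTR, the median log2 change was 0.12 in 10356 genes with no let-7 seed match, 0.08 in 1624 genes with 1, 0.05 in 288 genes with 2 and 0.07 in 81 genes with 3 or more. The 3′ UTR lengthened along the same order, with medians of 891, 2533, 4284 and 7024 bases. Among genes with 3′ UTRs of 2000 to 5000 bases the medians were 0.10, 0.07, 0.04 and 0.08, the last over 15 genes. Length was not equal between the classes there either, with median 3′ UTRs of 2854, 3257, 3550 and 3186 bases. The medians of the classes with 0, 1 and 2 sites stood in falling order both over all lengths and within this length range, and that of the last class did not continue it. Over all lengths 23.8%, 19.3%, 18.1% and 19.8% of genes were higher and 7.69%, 7.88%, 7.64% and 9.88% lower. Within the length range 18.9%, 17.8%, 18.7% and 20.0% were higher and 7.31%, 8.59%, 7.32% and 26.7% lower, the last shares over 15 genes. The differences between the classes were not tested. Among the 8 genes, TRIM71 with 8 sites and HMGA2 with 7 lay at 0.13 and -0.24, and LIN28A and IGF2BP3 with 1 site each lay at 0.23 and -0.25.

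**Figure D5:**
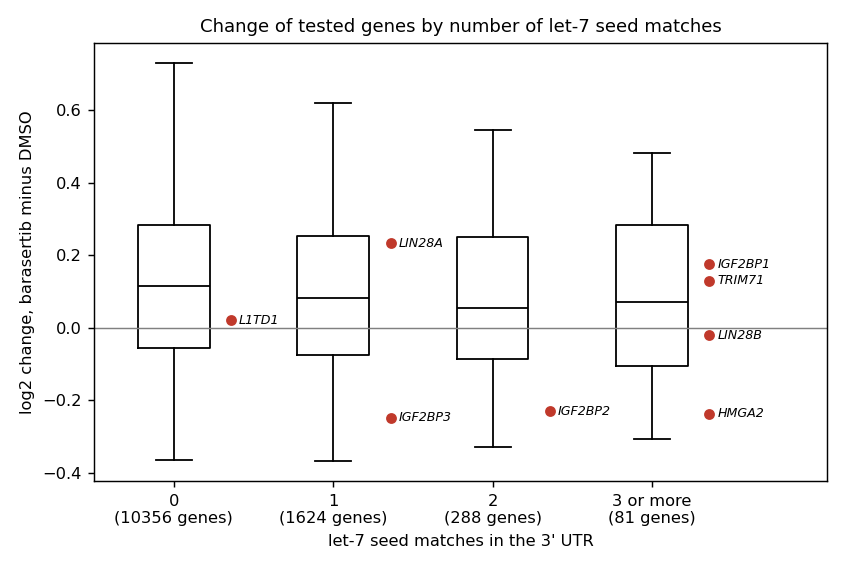
Log2 change, barasertib minus DMSO, by the number of let-7 seed matches in the 3′ UTR; boxes span the quartiles with the median line, whiskers run from the 5th to the 95th percentile of genes, and red points are the 8 genes beside their class. The median lines lie at 0.12, 0.08, 0.05 and 0.07.

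Of 6 genes linked with TRIM71, most of them messages it is reported to repress, 2 rose (33.3%) and none fell. The shares of all tested genes were 22.0% and 7.44%, or 10.7% and 7.05% under all 3 scalings. The counts of 2 and 0 held under all 3 scalings and at an unadjusted limma p under 0.05. The median change of the 6 genes was -0.17 relative to all genes. EGR1, an immediate early transcription factor, was at 19.7 and 16.9 TPM with barasertib, against 3.72 and 2.99 TPM with DMSO, a rise of 2.15 on the log2 scale (limma adjusted p = 0.000428). With pseudocounts of 0.1 and 5 in place of 1, the EGR1 change was 2.42 and 1.48, and it passed with both. CCNE1 (cyclin E1) was at 23.7 and 23.4 TPM with barasertib, against 16.9 and 17.9 TPM with DMSO (log2 change 0.42, limma adjusted p = 0.00950). The CCNE1 call was lost without barasertib replicate 1 (limma adjusted p = 0.0524). RBL2, a pocket protein that restrains the cell cycle, did not pass, at 20.6 ± 1.11 TPM with barasertib and 23.0 ± 0.202 TPM with DMSO (log2 change -0.15, limma adjusted p = 0.170). After median-of-ratios scaling RBL2 was lower (-0.26, adjusted p = 0.0488).

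Of 9 tested messages and partners tied to the IGF2BP proteins, 4 rose and 2, H19 and the PABPC1 described above, fell. These are 44.4% and 22.2%, against 22.0% and 7.44% of all tested genes. Under all 3 scalings 3 rose and 2 fell (10.7% and 7.05% of all tested genes). The list median was at 0.00 (0.0026) relative to all genes. H19, an imprinted noncoding RNA bound by IGF2BP proteins, was at 27.98 and 22.4 TPM with barasertib, against 54.7 and 55.6 TPM with DMSO, and fell by 1.11 (limma adjusted p = 0.00159). ACTB (beta-actin), whose message IGF2BP1 carries in neurons and fibroblasts, was at 4700 and 4214 TPM with barasertib, against 2701 and 2612 TPM with DMSO, a rise of 0.74 (limma adjusted p = 0.000733). FSCN1, an actin-bundling protein, and CD44, a hyaluronan receptor, rose by 0.91 and 0.63 (limma adjusted p of 0.000942 and 0.00265). IGF2 itself was at 0.682 and 0.751 TPM with barasertib, against 0.264 and 0.101 TPM with DMSO, and was not tested.

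The pluripotency markers of an embryonal carcinoma cell were expressed in every library, all 10 above the minimum. POU5F1 (OCT4) was at 3999 and 3949 TPM with barasertib, against 3708 and 3524 TPM with DMSO. Of the 10 markers 5 rose and 2 fell, or 50% and 20%, against 22.0% and 7.44% of all tested genes. Under all 3 scalings 2 rose and 2 fell (10.7% and 7.05% of all tested genes). DNMT3B, a DNA methyltransferase, rose by 0.89, and NANOG, a core pluripotency factor, rose by 0.62 (limma adjusted p of 0.000652 and 0.00103). CRIPTO, a Nodal co-receptor, fell by 0.32 (limma adjusted p = 0.0126). SOX2, the other marker that fell, was named after its values were seen. It was at 381 and 398 TPM with barasertib, against 456 and 446 TPM with DMSO (log2 change -0.21, limma adjusted p = 0.0143). The SOX2 change was -0.33 after median-of-ratios scaling (adjusted p = 0.00356) and -0.28 after quantile normalisation (0.00722). DPPA4 was at 277 and 293 TPM with barasertib, against 90.4 and 188 TPM with DMSO, the DMSO libraries standing far apart (log2 change 1.12, limma adjusted p = 0.0390). It was 0.59 without DMSO replicate 1 and 1.64 without DMSO replicate 2 (limma adjusted p of 0.00122 and 1.8e-05). The DPPA4 call was lost without either barasertib library (0.145 and 0.166), after either rescaling (0.0616 and 0.0602), without the filter (0.113), without the trend (0.0992) and with robust moderation (0.255). The rise of POU5F1, 0.14 (limma adjusted p = 0.0296), was 0.02 after median-of-ratios scaling (0.734) and 0.32 after quantile normalisation (0.00180). It was lost without either barasertib library or DMSO replicate 2 (0.0910 to 0.129).

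Of 15 markers of differentiated lineages, stroma, blood and endothelium, 13 were below the minimum of 1 TPM and 1, PTPRC, was listed at 0 throughout. The 2 tested, TUBB3 and MIXL1, rose by 0.34 and 0.69 (limma adjusted p of 0.0143 and 0.0182), but neither under all 3 scalings. The MIXL1 change depended on the pseudocount, at 0.95 with 0.1 and 0.31 with 5. The MIXL1 call was lost without either barasertib library or DMSO replicate 2, and that of TUBB3 without barasertib replicate 1. Summed over the 15 markers, expression was 108 and 97.8 TPM with barasertib, against 79.6 and 77.0 TPM with DMSO, most of it TUBB3, which stood at 101 and 90.6 TPM with barasertib, against 76.2 and 74.4 TPM with DMSO. Of the untested markers, CDX2 was at 0.921 and 1.02 TPM with barasertib, against 0.278 and 0.243 TPM with DMSO. COL1A1 was at 1.41 and 0.990 TPM with barasertib, against 0.497 and 0.210 TPM with DMSO. TBXT, AFP, GATA6 and NEUROG1, all under 1 TPM, were also higher in both barasertib libraries. SOX17 was listed at 0 in both barasertib libraries, against 0.0464 and 0.0443 TPM with DMSO. The groups overlapped for PAX6, CGA, COL1A2, DCN and PECAM1. These untested markers were named after their values were seen. Among all gene IDs, 9074 and 9123 were listed at 0 in the barasertib libraries, against 10153 and 10098 with DMSO. How many of all genes under 1 TPM were higher in both barasertib libraries was not counted. The part of the 15 markers in the changes of the 8 genes was not tested.

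Of 9043 other tested genes that averaged 10 TPM or more, the 2 nearest in pattern to LIN28A over the 4 libraries were REXO2 and CEBPZOS, at Euclidean distances of 0.00485 and 0.0109 between mean-centred log2 values. Those nearest to LIN28B were METTL2B and CCNJ (0.00660 and 0.0128), and those nearest to TRIM71 were PDSS1 and ZFAND2B (0.00796 and 0.0122). With 4 libraries many genes come close, since 167, 55 and 144 genes lay within a distance of 0.05 of LIN28A, LIN28B and TRIM71.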

How the data were processed

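RNA was measured in 4 libraries of 1 cell line, 2 per group. Per the labels' protocols, polyadenylated RNA was made into libraries with a stranded kit. The tools HISAT2 and StringTie and the build hg19 are named per the submitters' processing notes. Their versions and options, and whether strand was used, were not given in the sources used here. Per the file headers, the deposited values are TPM, FPKM and coverage, the last a signal of mean depth. The deposited TPM sum to 1000000 per library. The files hold no counts, so depth was estimated from coverage over FPKM. Rows were summed per gene ID, and RefSeq symbols (GRCh38.p14) matched 27559 of 27685 IDs.

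Genes averaging 1 TPM or more were tested with limma 3.58.1 (R 4.3.3) on log2(TPM + 1), group as the only term, letting the prior variance follow abundance (degrees of freedom: residual 2, prior 4.09), two-sided, Benjamini-Hochberg adjusted over all tested genes, at 0.05. The fit was tested on simulated data with changes larger than those of the 8 members, so that test does not cover changes of their size. The members and lists were chosen with earlier results of these data known. The text names all 8 members. From each of 8 other lists it names up to 4 called genes with the largest change and the most abundant gene, or, where none was called, the gene with the smallest p. It also names 2 nearest genes for each of 3 members. For 1 gene that the rule names, the result is not reported here. Other genes were named after their values were seen. The 14 alternatives are a filter (none, 5 TPM), pseudocounts of 0.1 and 5, FPKM, 2 scalings, no trend, robust moderation, a replicate block and each library left out.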

Additional observations from a re-analysis of the deposited data

How the results depend on the processing

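Among all tested genes, 3071 were higher and 1037 lower with barasertib. The counts were 1668 and 1721 after median-of-ratios scaling and 1649 and 1590 after quantile normalisation, 674 were lower without the mean-variance trend, and with 1 library left out 1365 to 2181 were higher and 601 to 699 lower. Of the 8 genes, 2 were higher and 2 lower. With FPKM 1 was higher, after median-of-ratios scaling 0 and after quantile normalisation 1, and without the filter 1 was lower. Without the mean-variance trend 0 were higher and 0 lower (limma; 2 and 2 at an unadjusted p under 0.05). With 1 library left out 0 to 1 were higher and 0 to 1 lower. LIN28B lay between -0.095 and 0.054 with 1 library left out, positive without barasertib replicate 1 or DMSO replicate 2 (0.03). L1TD1 changed sign with FPKM (-0.0024), after median-of-ratios scaling (-0.10), and without barasertib replicate 2 (-0.0018) or DMSO replicate 2, in a range of -0.039 to 0.081 with 1 library left out. HMGA1 changed sign after median-of-ratios scaling (-0.059), TUT7 after both rescalings (-0.020 and -0.052), DICER1 without barasertib replicate 1 (range -0.075 to 0.0015) and DIS3L2 without DMSO replicate 2 (range -0.14 to 0.0044), and METTL2B and CCNJ as LIN28B did (ranges of -0.097 to 0.057 and -0.094 to 0.041). Neither LIN28B nor L1TD1 passed under any of the 14 settings, and the other 6 genes kept their sign under all of them. The cause of these shifts was not tested.

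In the lists, median-of-ratios scaling gave 1 let-7 locus or host gene lower, 1 processing gene higher and 5 lower, 2 silencing genes lower, 7 let-7 targets higher, 1 TRIM71-linked gene lower, 2 pluripotency markers higher and 1 lineage marker higher. Quantile normalisation gave 1 processing gene higher and 5 lower, 2 silencing genes lower, 7 let-7 targets higher, 3 pluripotency markers higher and 0 lineage markers higher. Without the trend there were 1 processing gene higher and 1 lower, 2 let-7 targets lower, 2 pluripotency markers higher and 0 lower, and 1 lineage marker higher. Without the filter there were 1 let-7 locus or host gene higher, 2 let-7 targets lower and 3 pluripotency markers higher. Robust moderation gave 17 let-7 targets higher, and a minimum of 5 TPM 1 lineage marker higher. With 1 library left out, 1 to 2 processing genes were higher and 1 to 2 lower, 7 to 10 let-7 targets higher and 1 to 2 lower, 1 to 2 TRIM71-linked genes higher, 2 to 4 pluripotency markers higher and 1 to 2 lower, and 0 to 2 lineage markers higher.

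The replicate numbers are not stated to pair libraries, and the differences between replicates correlated with r = 0.0229 across genes. With the replicate block, 3218 genes were higher and 1080 lower, and the same 4 of the 8 genes were called. Group sizes of 2 limit the precision of changes as small as those of the 8 genes.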
